A study of Mus musculus with 6 samples.

Results

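The 10 genes described here mark mast cells and, in part, basophils. They are the granule proteases Cpa3, Mcpt4, Cma1, Tpsb2, Tpsab1 and Mcpt8, the stem cell factor receptor Kit, the IgE receptor chains Fcer1a and Ms4a2, and the histamine-forming enzyme Hdc. They were taken by exact gene symbol in the platform annotation, which gave 13 probe sets (sets of short probes that together read a transcript) of 45037 on the array and 10 genes of 17097. Each array held RNA of cells sorted from the stromal vascular fraction (SVF) of inguinal subcutaneous (subcut) fat of 1 male FVB/NJ mouse. There were 3 WT mice and 3 Klf3-/- littermates, 12 weeks old, untreated, fed standard chow and housed at 22 °C. The Klf3-/- mice lack the transcriptional repressor KLF3 in every tissue, so any cell type in a sorted sample came from a mutant animal. The gate was set for eosinophils, which were taken as viable Siglec-F+ F4/80+ CD11b+ CD45+ cells with high side scatter.

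Mast cells are tissue-resident leukocytes of the skin, gut wall and connective tissue, fat included. They store proteases bound to proteoglycan, together with histamine, in granules that are released when antigen crosslinks IgE held on the high-affinity receptor, FceRI. Their survival depends on KIT, the receptor for stem cell factor. In the mouse, connective tissue mast cells are known for the chymases Mcpt4 and Cma1, the tryptases Tpsb2 and Tpsab1 and carboxypeptidase A3, mucosal mast cells for Mcpt1 and Mcpt2, and basophils for Mcpt8.

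The deposited values were linear intensities, and the array medians ran from 30.3 to 58.7, with the highest on WT replicate 2 (56.5) and Klf3-/- replicate 2 (58.7). Comparisons therefore used log2 values after quantile normalisation across the arrays. The table holds no detection calls. The 95th percentile of 44 olfactory receptor probe sets, 5.10 log2 units or 34.2 on the linear scale, stood for background. Only 2 of 9 measured eosinophil markers had a mean above this level, and the defining genes Siglecf (4.36), Epx (4.35), Prg2 (3.31) and Ccr3 (3.62) lay under it. All 11 measured macrophage markers and all 11 stromal fibroblast markers lay above it. Levels of different probe sets are not on a common scale, so they are compared between arrays and not between genes.

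Mast cell transcripts were bright on both arrays of replicate 2, one of each genotype, and much dimmer on the other arrays, Klf3-/- replicate 1 ranking next for most genes. Cpa3, which encodes carboxypeptidase A3, gave intensities, as deposited, of 132, 1316 and 165 for WT replicates 1 to 3 against 511, 3286 and 237 for Klf3-/- replicates 1 to 3. Mcpt4, a chymase, read 7.19, 1505 and 79.4 in WT mice against 262, 2235 and 64.4 in Klf3-/- mice. Cma1, the other chymase of connective tissue mast cells, read 43.1, 1622 and 89.8 in WT mice against 262, 2947 and 65.4 in Klf3-/- mice. In all 3 genes the replicate 2 arrays stood highest, WT replicate 1 stood lowest and the genotypes overlapped. In bulk samples, fewer mast cells and less RNA per mast cell cannot be told apart.

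**Figure D1:**
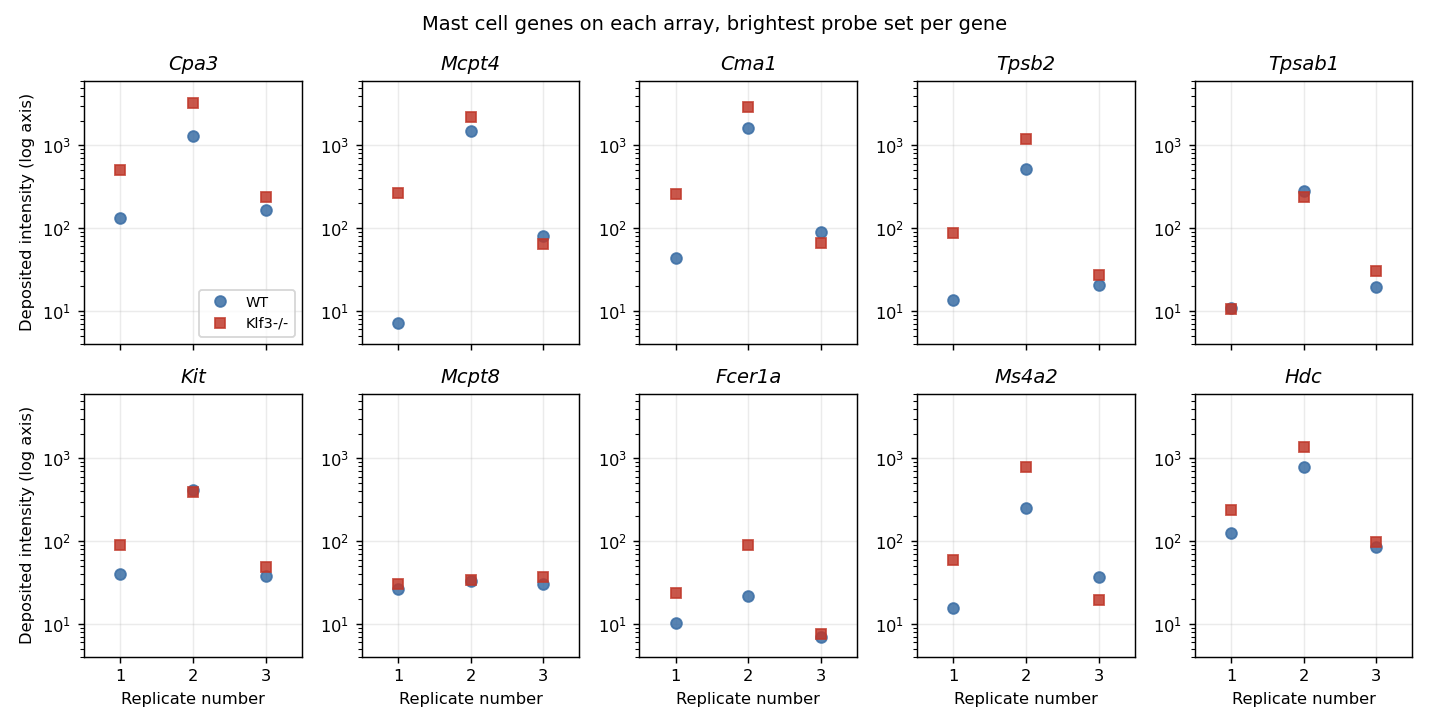
Deposited intensity (log axis) of the brightest probe set of each of the 10 genes against replicate number, with WT arrays as blue circles and Klf3-/- arrays as red squares, 1 point per mouse. In 8 genes both replicate 2 points lie above the other 4, as for Cpa3 at 1316 and 3286, while Mcpt8 stays between 26.6 and 37.0.

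The tryptases were also highest on the replicate 2 arrays. Tpsb2, a tryptase stored in mast cell granules, read 13.4, 511 and 20.4 in WT mice against 88.4, 1204 and 26.8 in Klf3-/- mice by its brighter probe set. Its other probe set lay under background on average (4.81 log2 units) and spanned 15.1 to 79.5, the replicate 2 arrays again being highest. Tpsab1, the tryptase also known as mast cell protease 7, read 10.8, 284 and 19.5 in WT mice against 10.6, 237 and 29.9 in Klf3-/- mice. WT replicate 2 was its highest array and Klf3-/- replicate 1 its lowest, and 3 of 6 arrays were above background after normalisation. RefSeq lists Tpsab1 as a transcribed pseudogene in the C57BL/6J assembly, whereas the mice studied here were FVB/NJ.

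Kit and Hdc, like Cpa3 and Cma1, were above background on every array. Kit read 40.1, 421 and 37.5 in WT mice against 89.5, 398 and 49.2 in Klf3-/- mice, so the WT mouse of replicate 2 stood slightly above its Klf3-/- counterpart. Hdc, which makes histamine from histidine, read 125, 787 and 84.7 in WT mice against 237, 1393 and 97.4 in Klf3-/- mice by its brighter probe set. On the normalised scale WT replicate 2 exceeded WT replicates 1 and 3 by 2.56 and 2.34 log2 units in Kit and by 1.78 and 1.92 in Hdc. Klf3-/- replicate 2 exceeded Klf3-/- replicates 1 and 3 by 1.66 and 2.06 log2 units in Kit and by 2.04 and 2.80 in Hdc. The other Hdc probe set spanned 61.5 to 704 as deposited, with the same order of arrays.

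The IgE receptor chains were near or below background on most arrays outside replicate 2. Ms4a2, the beta chain that amplifies receptor signalling, read 15.7, 250 and 37.2 in WT mice against 59.6, 788 and 19.4 in Klf3-/- mice by its brighter probe set. Fcer1a, the alpha chain that binds IgE, read 10.2, 21.5 and 6.85 in WT mice against 23.6, 90.1 and 7.62 in Klf3-/- mice, and only Klf3-/- replicate 2 passed background after normalisation. The other Ms4a2 probe set likewise passed background only on Klf3-/- replicate 2, where it read 52.0, and spanned 6.15 to 15.4 elsewhere. Ms4a2 had both replicate 2 arrays on top by its brighter probe set alone, and Fcer1a did not, since Klf3-/- replicate 1 stood above WT replicate 2.

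Mcpt8, the basophil protease, did not follow the other members. It read 26.6, 33.0 and 30.5 in WT mice against 30.1, 33.8 and 37.0 in Klf3-/- mice, and its mean level lay under background. After normalisation both replicate 2 arrays were its lowest, and its whole span was 0.82 log2 units against 2.56 to 7.58 for the other members.

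In 8 of 10 genes both replicate 2 arrays lay above the other 4 arrays, whereas this held for 6.67% of all measured genes and 7.14% of those above background. For replicates 1 and 3 the shares of all genes were 6.8% and 11.1%. In a limma fit with genotype and replicate number as terms, chosen after the values were seen, the replicate number term had an unadjusted p under 0.05 for 10 of 10 genes, Mcpt8 in the opposite order included, and for 8.73% of all probe sets. None passed after adjustment over all 45037 probe sets, and 0% of probe sets did. Tpsab1 had the smallest adjusted p of the set for this term (0.269 from limma) and Mcpt8 the largest (0.542 from limma). The labels call the mice litter-matched but do not say what the replicate number stands for, and litter, sort and array processing cannot be told apart here. The array medians were also highest on replicate 2, and quantile normalisation set the arrays to a common distribution.

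The genotype comparison asked whether these transcripts changed in the absence of KLF3. The Klf3-/- mean was above the WT mean in 8 of 10 genes (44.8% of all genes), with a median log2 difference of 0.74 against -0.03 over all probe sets. On the values as deposited these medians were 0.94 and 0.13. The normalised median of the 10 genes was -0.18 without Klf3-/- replicate 2 and -0.10 without WT replicate 1, and 1.62 without Klf3-/- replicate 3. In limma 0 of 10 passed an adjusted p under 0.05, as did 0% of all probe sets. At an unadjusted p under 0.05 it was again 0 of 10, where 3.1% of probe sets were higher and 2.39% lower. No gene of the 10 was free of overlap between genotypes, and 4.84% of all genes were without overlap with Klf3-/- higher and 6.55% with Klf3-/- lower. Over probe sets these shares were 4.49% and 6.51%.

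The Cpa3 level was 9.48 ± 1.55 log2 units in Klf3-/- mice against 8.35 ± 1.24 in WT mice (mean ± SD, n = 3), which differed by 1.14 with a standard error of 0.87 (adjusted p = 0.946 from limma). The exact two-sided permutation p for Cpa3 was 0.4, and 0.1 is the smallest that 3 against 3 arrays allow. Mcpt4 had the largest difference of the set, 1.66 log2 units with a standard error of 1.76 (adjusted p = 0.955 from limma), and it was -0.15 without WT replicate 1, where Mcpt4 lay below background. Tpsb2 had a difference of 1.28 (standard error 1.45) by its brighter probe set, 0.05 by the other and 0.66 by their mean. Fcer1a, under background on every WT array, had a fitted difference of 1.04 (standard error 0.61), Cma1 0.84 (1.41) and Ms4a2 0.64 (1.22). Hdc and Kit had 0.44 (standard error 0.79) and 0.28 (0.79). Tpsab1 and Mcpt8 had differences of -0.03 (standard error 1.23) and -0.02 (0.30), and both turned positive, to 0.11 and 0.16, on the values as deposited. The standard errors exceeded the differences in 8 of the 10 genes, Cpa3 and Fcer1a being the exceptions.

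Within replicate numbers, the Klf3-/- mouse stood above the WT mouse in 8 of 10 genes in replicate 1, in 8 in replicate 2 and in 6 in replicate 3. Cpa3, Tpsb2 (by its brighter probe set) and Fcer1a were higher in all 3 replicates, a pattern seen in 11.8% of all genes. Both arrays lay under background for Tpsb2 in replicate 3 and for Fcer1a in replicates 1 and 3, so the direction of those pairs rests on dim signal. The Cpa3 differences were 1.61, 1.54 and 0.26 log2 units in replicates 1 to 3, all between arrays above background, and that of Tpsb2 in replicate 2 was 1.22. These 3 genes passed an unadjusted threshold of 0.05 in limma with replicate number as a block, where 3.85% of probe sets were higher at that level and 3.28% lower, and none of the 10 did in a two-way analysis of variance with the same terms. Their adjusted p stayed at 0.664, 0.679 and 0.679 in limma with the block. The other Tpsb2 probe set, under background on average, was lower in the Klf3-/- mouse of replicate 3 (-0.59 log2 units). Its unadjusted p was 0.872 in limma with the block. Mcpt4, Cma1 and Ms4a2 were lower in the Klf3-/- mouse of replicate 3, Ms4a2 lying under background there. Hdc had -0.06 log2 units in replicate 3 after normalisation but was higher in the Klf3-/- mouse as deposited.

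**Figure D2:**
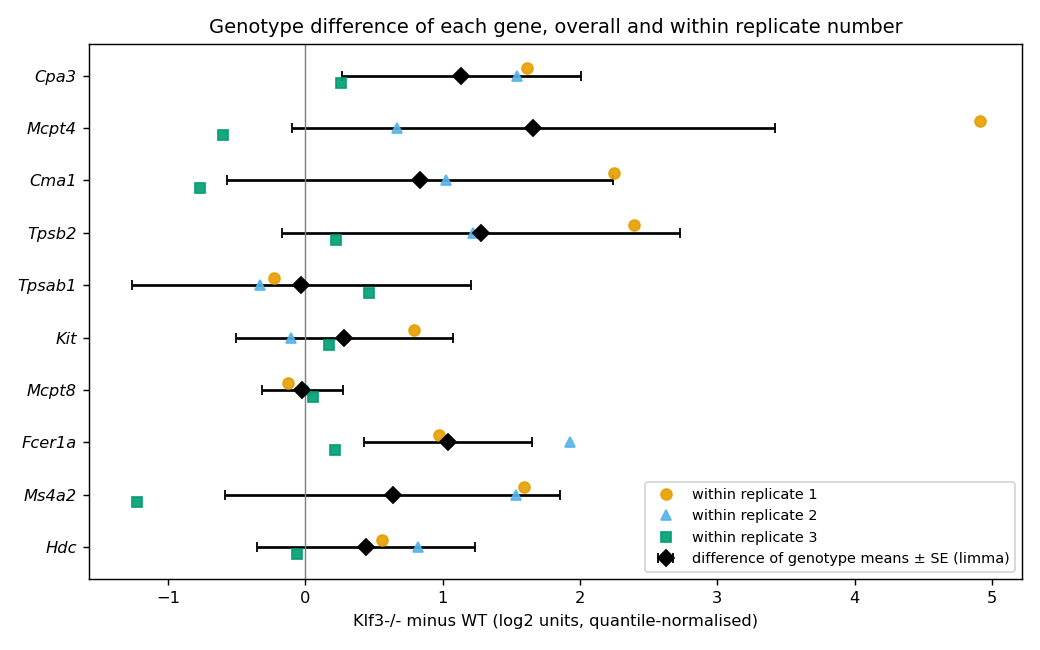
Klf3-/- minus WT in quantile-normalised log2 units for each gene. Black diamonds with bars are the difference of genotype means ± its standard error from limma (n = 3 each), and coloured symbols are the differences within replicates 1 to 3, shifted vertically for legibility. Mcpt4 spreads from -0.60 in replicate 3 to a plotted 4.91 in replicate 1, where its WT array lay under background and the size is not a measured fold.

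Stromal and macrophage markers also had higher Klf3-/- means for the most part. All 11 stromal markers had a higher Klf3-/- mean (44.8% of all genes), with a median log2 difference of 0.95. At an unadjusted p under 0.05 in limma, where 3.1% of all probe sets were higher, so were 5 stromal markers. After adjustment 0 of the stromal markers passed. Their summed deposited intensity ran from 9225 to 18374 in WT and from 15333 to 34683 in Klf3-/-, the highest being Klf3-/- replicate 2. After normalisation the genotypes did not overlap in the mean of the stromal markers. It was 7.96, 8.46 and 8.68 log2 units in WT mice 1 to 3 against 8.93, 10.12 and 8.84 in Klf3-/- mice 1 to 3. Singly, 4 stromal markers were without overlap with Klf3-/- higher, as were 4.84% of all genes. Of 11 macrophage markers 10 had a higher Klf3-/- mean, with a median of 0.21 and deposited sums of 11984 to 17670 in WT and 18403 to 28635 in Klf3-/-. After normalisation the genotypes overlapped in the mean of the macrophage markers. It was 10.16, 9.52 and 10.11 log2 units in WT mice 1 to 3 against 10.01, 10.32 and 11.43 in Klf3-/- mice 1 to 3. The mast cell genes summed to 424, 6751 and 571 in WT mice 1 to 3 against 1574, 12612 and 634 in Klf3-/- mice 1 to 3. Macrophage markers were highest on Klf3-/- replicate 3 (28635), where the mast cell sum was low. The part of these cells in the mast cell values was not tested.

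**Figure D3:**
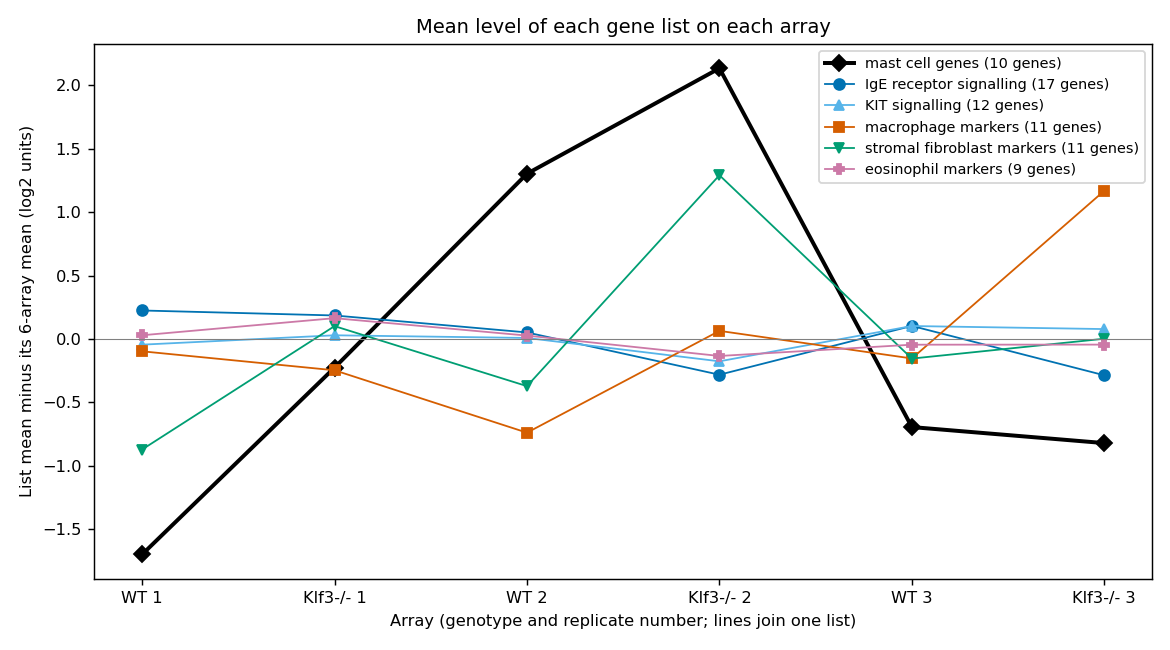
Mean quantile-normalised log2 level of 6 gene lists on each array, minus the list's mean over the 6 arrays, with 1 line per list. The mast cell genes rise from a mean level of 4.88 on WT replicate 1 to 8.71 on Klf3-/- replicate 2, while the 9 eosinophil markers stay between 4.09 and 4.38.

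Sequence upstream of the genes was set beside these levels because 8 of 10 genes had both replicate 2 arrays on top. RefSeq promoter windows (GRCm38.p6) were at hand for 8 of 10 genes, Tpsb2 and Tpsab1 being without one. The 250 bases before the annotated start were searched on both strands for GATAA, the core bound by GATA factors such as GATA2, and for CACCC, the core bound by KLF proteins, and no match of one overlapped the other. GATAA (or TTATC) was found in 5 of 8 genes and in 22.6% of all 32851 promoter windows. CACCC (or GGGTG) was found in 3 of 8 genes and in 52.0% of all windows. The windows shown are those of Cpa3, Mcpt4 and Cma1, which had both replicate 2 arrays on top, and of Mcpt8, which had not. They are given 5′ to 3′ on the gene's strand, all on the minus strand, with matches in capitals.
Cpa3 (chr3:20242182-20242431): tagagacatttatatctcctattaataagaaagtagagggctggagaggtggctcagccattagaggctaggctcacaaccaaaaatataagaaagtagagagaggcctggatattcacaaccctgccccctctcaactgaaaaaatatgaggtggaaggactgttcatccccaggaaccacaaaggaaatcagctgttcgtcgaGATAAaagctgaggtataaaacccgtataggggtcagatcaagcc
Mcpt4 (chr14:56062311-56062560): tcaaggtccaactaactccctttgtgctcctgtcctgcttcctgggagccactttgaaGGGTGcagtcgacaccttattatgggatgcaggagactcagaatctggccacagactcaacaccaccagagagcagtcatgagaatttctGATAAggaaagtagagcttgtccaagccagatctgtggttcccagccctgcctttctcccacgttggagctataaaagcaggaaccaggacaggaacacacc
Cma1 (chr14:55944676-55944925): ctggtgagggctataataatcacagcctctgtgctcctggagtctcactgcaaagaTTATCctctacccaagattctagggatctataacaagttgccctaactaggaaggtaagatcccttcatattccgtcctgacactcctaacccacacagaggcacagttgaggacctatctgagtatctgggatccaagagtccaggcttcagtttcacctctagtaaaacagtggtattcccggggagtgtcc
Mcpt8 (chr14:56085198-56085447): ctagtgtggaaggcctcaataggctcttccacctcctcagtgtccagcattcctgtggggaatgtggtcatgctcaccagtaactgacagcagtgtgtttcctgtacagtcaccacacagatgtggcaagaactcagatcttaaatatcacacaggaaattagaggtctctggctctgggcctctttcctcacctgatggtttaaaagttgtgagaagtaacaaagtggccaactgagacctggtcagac

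The GATAA match began 45 bases before the start in Cpa3, 102 in Mcpt4 and 194 in Cma1, where it lay on the other strand. Mcpt4 also had a CACCC match on the other strand, 192 bases before the start. The other CACCC matches were in Fcer1a, 132 bases before the start, and in Kit, 208 bases before it (212 in its other window). Fcer1a had 1 GATAA match and Ms4a2 had 3, whereas Kit, Hdc and Mcpt8 had no GATAA match in this window. Kit and Hdc, like Cpa3, Mcpt4 and Cma1, had both replicate 2 arrays on top. A match gives the letters present and no evidence of binding.

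Mcpt4, Cma1 and Mcpt8 lie in the chymase and granzyme locus, where protease genes of mast cells, basophils, neutrophils and lymphocytes stand side by side. Of 15 protein-coding genes from Cma1 to Gzmb in the RefSeq order, 14 were measured and 4 lay above background, namely Cma1, Mcpt4, Ctsg and Gzmb. The mucosal mast cell proteases Mcpt1 and Mcpt2 lay between the chymases in this order and had mean levels of 3.16 and 3.59 log2 units, under background, as had Mcpt9 (3.77). Ctsg, which encodes cathepsin G of neutrophil and mast cell granules, read 25.2, 239 and 18.2 in WT mice against 57.9, 168 and 17.9 in Klf3-/- mice. Cma1, Mcpt4 and Ctsg were the 3 measured genes of the locus with both replicate 2 arrays on top. Gzmb, the granzyme B of cytotoxic cells that some mast cells also make, had an order of its own, with 45.4, 227 and 35.5 in Klf3-/- mice against 15.9, 23.6 and 28.5 in WT mice (log2 difference 1.45, adjusted p = 0.879 from limma). All Klf3-/- arrays stood above all WT arrays in Gzmb, as in 4.84% of all genes. On WT replicates 1 and 2 Gzmb lay under background (4.18 log2 units on each), so the size of its difference rests on dim signal.

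**Figure D4:**
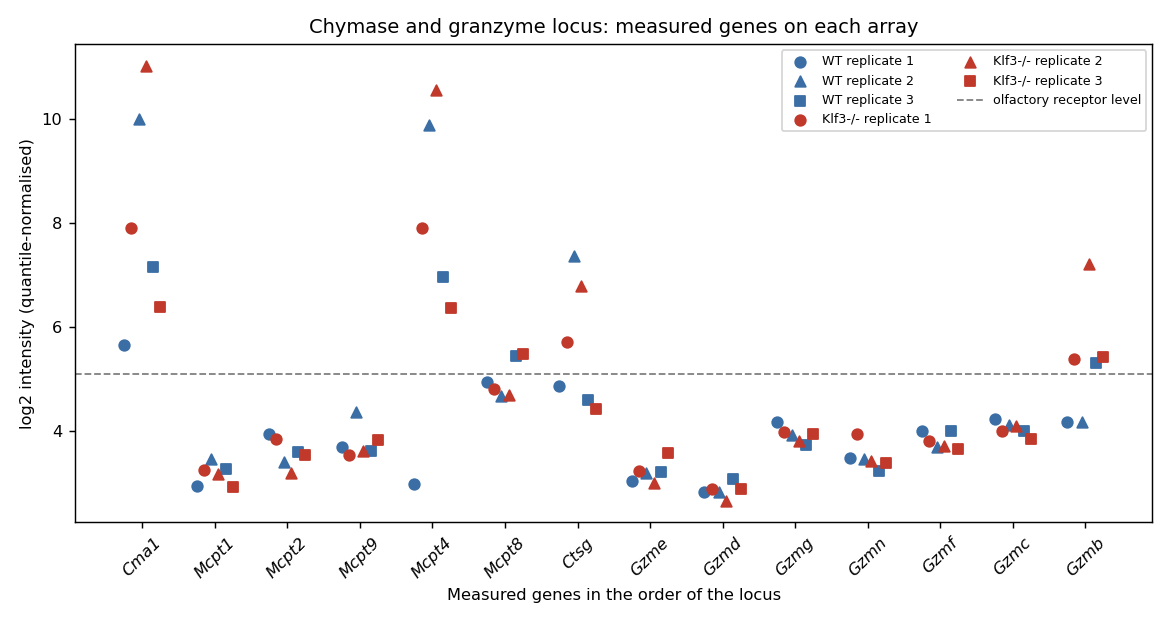
Quantile-normalised log2 intensity of the 14 measured genes from Cma1 to Gzmb in locus order, 1 symbol per array, with WT in blue, Klf3-/- in red and the replicate number as the symbol's shape. The dashed line is the background of 5.10, and the means of Mcpt1, Mcpt2, Mcpt9 and Mcpt8 lie under it between Cma1 and Ctsg.

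Cpa3 was used to ask which other genes had the most similar profile. Likeness was the root mean square difference between mean-centred log2 profiles over the 6 arrays, among 11107 other genes above background. The 5 nearest were Ifi205 (0.32 log2 units), the monoamine oxidase Maob (0.33), Ndrg4 (0.35), the protease inhibitor Slpi (0.41) and the transcription factor Gata2 (0.42). Gata2 read 40.0, 368 and 79.2 in WT mice against 170, 660 and 87.6 in Klf3-/- mice, and Maob read 21.1, 107 and 23.0 in WT mice against 99.9, 446 and 34.4 in Klf3-/- mice. Among the members Hdc came nearest to Cpa3, at 0.46, with 6 of the other genes closer, followed by Kit at 0.55 with 9 closer and Ms4a2 at 0.57 with 10 closer. Mcpt4 was at 1.41 with 7297 closer, its span over the arrays being 7.58 log2 units against 3.97 for Cpa3, and Mcpt8 was farther still, with 9138 closer.

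Further genes of mast cells showed the replicate 2 pattern in part. Of 15 measured genes of other mast cell granule, surface and transcription factor functions, 12 lay above background and 6 had both replicate 2 arrays on top, namely Srgn, Slc6a4, Gata2 and Slc45a3 and, with means under background, Tph1 and Gata1. In Srgn, Klf3-/- replicate 2 exceeded Klf3-/- replicate 1 by only 0.05 log2 units. It stood lower (12.01 against 12.14) when each array was instead centred on its median. Slc6a4, the serotonin transporter, read 20.9, 188 and 11.7 in WT mice against 71.6, 334 and 25.5 in Klf3-/- mice. Of these 15 genes 11 had a higher Klf3-/- mean (44.8% of all genes). The median log2 difference was 0.53 and 0 passed after adjustment in limma. Rab27b alone had an unadjusted p under 0.05 in limma (difference 1.40, adjusted p = 0.854), where 3.1% of all probe sets were higher at that level. Rab27b, a small GTPase of granule exocytosis, had no overlap between genotypes, all Klf3-/- arrays being above all WT arrays, as in 4.84% of all genes. On WT replicate 1 Rab27b lay under background (4.27 log2 units). Of 9 measured basophil markers, Fcer1a and Mcpt8 included, 3 had both replicate 2 arrays on top (Gata2, Cyp11a1 and, with a mean under background, Il13). The median difference of the 9 was 0.12, with 0 passing and 0 at an unadjusted p under 0.05.

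Genes that act downstream of the IgE receptor and KIT are shared by many leukocytes. After quantile normalisation they did not, for the most part, take the replicate 2 order. As deposited, the summed intensities of both lists were highest on the replicate 2 arrays, as were the array medians. Of 17 measured genes of IgE receptor signalling, all above background, 15 had a lower Klf3-/- mean and 2 a higher one (44.8% of all genes). The median log2 difference was -0.24 (-0.01 as deposited). Without overlap between genotypes were 1 gene with Klf3-/- higher and 3 with Klf3-/- lower, against 4.84% and 6.55% of all genes. In limma 0 passed after adjustment and 0 had an unadjusted p under 0.05. Fcer1g, the gamma chain that FceRI shares with other Fc receptors, read 812, 1132 and 571 in WT mice against 772, 1230 and 1060 in Klf3-/- mice. The replicate 2 arrays were thus its highest as deposited, whereas after normalisation WT replicate 2 was its lowest (9.49 log2 units). Orai1 was the 1 gene of this list with both replicate 2 arrays on top after normalisation. Of 12 measured genes of KIT signalling 5 were higher and 7 lower in the Klf3-/- mean, with a median of -0.10 (0.10 as deposited). Jak2 alone of these had both replicate 2 arrays on top after normalisation. Kitl, which encodes the KIT ligand and is made by stromal cells, had a log2 difference of 0.39 (adjusted p = 0.970 from limma).

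Histamine receptors and the enzymes that clear histamine did not follow Hdc. Of 6 measured genes only 3 had a mean above background. Of the 6, 5 had a higher Klf3-/- mean, with a median of 0.34, and none had both replicate 2 arrays on top after normalisation. Hnmt, which methylates histamine, read 33.7, 20.1 and 25.2 in WT mice against 18.2, 128 and 84.2 in Klf3-/- mice. Of 8 other Fc and IgE-binding receptors 4 were higher and 4 lower, with 0 passing after adjustment in limma. Fcamr alone had an unadjusted p under 0.05 in limma, being lower (log2 difference -1.69, adjusted p = 0.896), as were 2.39% of all probe sets. The low-affinity IgE receptor Fcer2a read 287, 323 and 254 in WT mice against 442, 218 and 143 in Klf3-/- mice, an order unlike that of Fcer1a and Ms4a2. Of 8 measured genes of other mast cell and granule proteases 3 were higher and 5 lower, with a median of -0.07 (0.06 as deposited) and 0 passing. Gzmb alone had an unadjusted p under 0.05 in limma, where 3.1% of all probe sets were higher at that level.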

How the data were processed

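Sorted cells of each mouse gave RNA for 1 Affymetrix HT MG-430PM array, after amplification by a Pico kit for low inputs. The authors processed them in Partek Genomics Suite. The deposited values are linear intensities, and the sources used here name RMA without saying which of its steps were applied. Here, log2 values were quantile-normalised between arrays and fitted with limma 3.58.1 (lmFit and eBayes, under R 4.3.3). Genotype was the single term, with Benjamini-Hochberg adjustment over 45037 probe sets at a threshold of 0.05. The fit was tested on simulated data. Probe sets with 1 symbol in the platform annotation numbered 28898, and the one with the highest mean stood for each of 17097 genes. The number of arrays limits precision. As a pairing check, residuals about each genotype's mean were compared between the WT and Klf3-/- arrays that share a number, giving r of 0.17, 0.23 and 0.21, so the replicate number entered a blocked fit as an alternative. Named genes were the members, the 5 genes nearest to Cpa3 and, where a result turned on them, the 2 genes of smallest p and the 2 of highest mean of each list; other list genes were named after their values were seen. The members and lists were chosen with earlier results of these data known. Figures were drawn with matplotlib 3.10.9.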

Additional observations from a re-analysis of the deposited data

How the results depend on the processing

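No alternative brought any of the 10 genes past an adjusted p under 0.05, nor any probe set where all probe sets were counted, which was not done for the mean of a gene's probe sets or with cross-hybridising probe sets left out. The alternatives were other scalings, the replicate block, other fits and filters, the analyses of variance, leaving out each array and, chosen after the data were seen, leaving out both arrays of replicate 2. With the replicate block, 3 of 10 genes had an unadjusted p under 0.05, where 0 had without it, and 0 had in the two-way analysis of variance with the same block. None passed after adjustment. Over all probe sets the count at an unadjusted p under 0.05 was 2475, which was 3212 with the replicate block and 1212 on the values as deposited. The count of genes without overlap between genotypes, 0 of 10, ranged from 0 to 3 when single arrays were left out, being 3 (Cpa3, Tpsb2 and Kit) without WT replicate 2, where 8.45% of all genes were so with Klf3-/- higher and 14.8% with Klf3-/- lower, and 1 (Fcer1a) without Klf3-/- replicate 3, where the shares were 8.13% and 13.2%. It was 3, the same genes, without both arrays of replicate 2, where the shares were 14.9% and 20.6% and the median log2 difference was 0.54.

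Of 130 gene values under alternatives, 37 equal the original by construction. Of the other 93, 74 kept their direction and 19 turned. On the values as deposited Tpsab1 turned to 0.11 and Mcpt8 to 0.16, and without both replicate 2 arrays Tpsab1 turned to 0.12. Leaving out single arrays moved Mcpt4 between -0.15 and 3.30, Cma1 between -0.46 and 2.04, Tpsb2 between -0.031 (without Klf3-/- replicate 2) and 2.62, Tpsab1 between -1.03 and 1.12, Kit between -0.34 and 1.10, Mcpt8 between -0.27 and 0.19, Ms4a2 between -0.64 and 1.58 and Hdc between -0.37 and 1.06. The median over the 10 genes moved between -0.18 and 1.62. Cpa3 (0.26 to 1.81) and Fcer1a (0.36 to 1.65) kept their direction without each single array. Fcer1a and Mcpt8 had means under background, so their differences rest on dim signal.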

Other observations

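Of 6 measured neutrophil markers, 2, Mpo and Elane, had both replicate 2 arrays on top. Mpo, which encodes myeloperoxidase, read 24.5, 348 and 27.4 as deposited in WT mice 1 to 3 against 33.6, 175 and 25.7 in Klf3-/- mice 1 to 3. Elane, which encodes neutrophil elastase, read 10.2, 156 and 9.04 in WT mice against 13.6, 38.7 and 12.6 in Klf3-/- mice, and only WT replicate 2 was above background for Elane. Both were highest in WT replicate 2, whereas most mast cell genes were highest in Klf3-/- replicate 2. S100a8, expressed by mature neutrophils and monocytes, read 58.2, 156 and 160 in WT mice against 230, 230 and 159 in Klf3-/- mice, and Ngp was highest in Klf3-/- replicate 1 (301).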
